A study of Homo sapiens with 2 samples.

Results

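The H/ACA small nucleolar RNAs (symbols starting SNORA) and the small Cajal body RNAs (symbols starting SCARNA) were measured in D407, an established line labelled as human adult retinal pigment epithelium (RPE). Genes were taken by these symbols where the level was above 0 in at least 1 of the 2 libraries, which gave 117 of the 130 genes so named and of 37364 genes in all, 93 SNORA and 24 SCARNA. One library came from D407 cells given clusterin, a glycoprotein that cells secrete and that acts as a chaperone, and the other from control D407 cells; both kinds of culture grew in the same serum-supplemented medium. Neither the amount of clusterin nor the time of exposure is stated in the labels, which describe the treatment for a viability assay. The series asked which coding and noncoding RNAs differ with clusterin. With 1 library per group no difference had a replicate check, and every interval below covers counting error only. In bulk RNA, fewer cells of a kind and less RNA per cell cannot be told apart.

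H/ACA RNAs fold into hairpins followed by an H box and an ACA box, and they pair with a target RNA so that dyskerin, the enzyme of the particle, turns a chosen uridine into pseudouridine. The SNORA guides work in the nucleolus, mostly on ribosomal RNA. Small Cajal body RNAs guide the modification of spliceosomal small nuclear RNAs in the Cajal body, and they can carry H/ACA boxes, C/D boxes (which guide ribose methylation) or both. Most of these RNAs are cut from introns of host genes, and the mature forms have no poly(A) tail, whereas the labels' protocol enriched RNA on oligo(dT) beads and broke it into fragments of about 200 bp. The levels therefore describe the reads that fell on these loci in such libraries and were not a direct measure of the mature RNA.

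Levels are RPKM, reads scaled to the length of the gene and the library total, which was 33177101 reads for clusterin and 38236992 for control; differences are log2((clusterin RPKM + 1)/(control RPKM + 1)). Of 13244 genes averaging 1 RPKM or more over both libraries, called measured here, the median difference was -0.06 and 29.8% lay above 0. The libraries held simple epithelial keratins at high level, with KRT7 at 420 and 407 RPKM in the clusterin and control libraries. Of 10 RPE markers, RPE65, RLBP1, LRAT, TTR and TYR were listed at 0 in both. MITF stood at 9.88 and 9.70 RPKM, RDH11 at 11.9 and 13.2 and STRA6 at 7.98 and 7.83. BEST1 (1.73 and 2.14 RPKM) and PMEL (0.397 and 0.582) were low. The fibroblast markers LUM (45.7 and 46.2 RPKM) and DCN (24.9 and 25.9) stood above these RPE markers, while COL1A1 stood at 0.920 and 1.15. Reads per gene were recovered for all 117 small RNAs. They held 121632 reads with clusterin, 0.367% of that library, and 136243 in the control, 0.356%. The ratio of these shares was 1.03, with a 95% counting interval of 1.02 to 1.04.

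The small RNAs covered a wide range of levels. A mean of at least 100 RPKM was reached by 40 of the 117, 47 lay between 10 and 100 RPKM, 25 between 1 and 10, and 5 below 1. The 112 at or above 1 RPKM are the measured ones. The 12 with most reads held 62.8% of the reads of the set with clusterin and 63.7% in the control. SCARNA2 alone held 23.8% and 23.6%. Just inside the rule stood SNORA59A and SNORA59B, each at 0.297 RPKM with clusterin and 0.258 in the control. Outside it, listed at 0 in both libraries, were 13 genes, most of them extra copies such as SNORA11B to SNORA11E, SNORA70B to SNORA70F, SNORA16B and SNORA36C, together with SNORA29 and SNORA35.

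**Figure D1:**
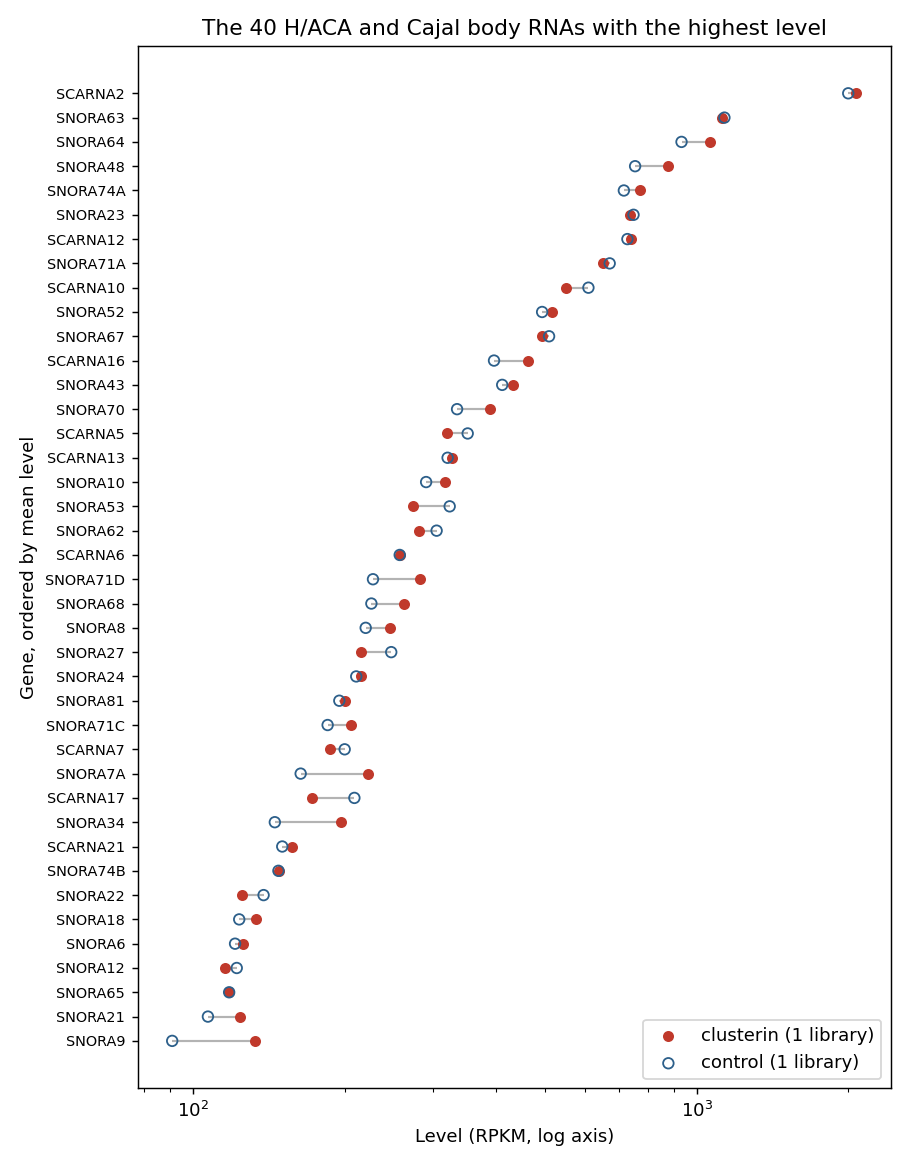
Level of the 40 small RNAs with the highest mean, in RPKM on a log axis, with a filled point for the clusterin library and an open point for the control library (1 library each). SCARNA2 stands at 2076 and 2001 RPKM, and most pairs of points lie close together, with wider gaps at SNORA7A, SNORA34 and SNORA9.

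SCARNA2, a C/D type Cajal body RNA that guides methylation of the U2 small nuclear RNA, had the highest level, 2076 RPKM with clusterin (28933 reads) and 2001 RPKM in the control (32139 reads). Its RPKM ratio was 1.04 (95% counting interval 1.02 to 1.05). The next 5 by level were SNORA genes. SNORA63, also called E3, stood at 1124 and 1136 RPKM in the clusterin and control libraries, a ratio of 0.990 (0.953 to 1.03). Its interval included 1, as did that of SNORA23, at 736 and 749 RPKM with a ratio of 0.983 (0.945 to 1.02). SNORA71A, of the U71 family, stood at 653 and 672 RPKM, with a ratio of 0.971 (0.925 to 1.02).

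Other abundant SNORA genes stood higher with clusterin. SNORA64 (U64) had 1063 RPKM with clusterin and 933 in the control, a ratio of 1.14 (1.09 to 1.19). SNORA48 had 878 and 755 RPKM, with a ratio of 1.16 (1.11 to 1.22). For SNORA74A (U19) the levels were 773 RPKM with clusterin and 717 in the control, a ratio of 1.08 (1.04 to 1.12). Each of these intervals lay above 1, but the size of the difference, at most 0.22 on the log2 scale, was small.

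As a set, the small RNAs lay higher in the clusterin library than genes in general. Of the 112 measured ones 75 were above 0, or 67.0%, against 29.8% of all measured genes, and 85 were above the median of all genes. Their median difference was 0.11, with a middle range of -0.05 to 0.32, against -0.06 for all genes. The SNORA genes had a median of 0.13, with 63 of 89 above 0, and the SCARNA genes 0.00, with 12 of 23 above 0. Summed over genes, SNORA reads gave a ratio of 1.06 (1.05 to 1.07) whereas SCARNA reads made up 0.180% of each library (ratio interval 0.989 to 1.01) and gave a ratio of 0.967 without SCARNA2. These counts describe 2 libraries, in which all genes share depth and preparation.

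With 1 RPKM added to each level, few of these RNAs differed by as much as 2-fold. On that scale, among the 112 measured ones 1 was at least 2-fold higher and 0 were at least 2-fold lower, against 0.106% and 0.113% of all measured genes (0.219% in either direction). The count depended on what was added: it was 4 with 0.1 RPKM and 0 with 5 RPKM. For these settings, and for ratios with nothing added, no share of all genes was counted. The 1 past 2-fold with 1 RPKM added was SNORA36B, at 2.07 RPKM with clusterin and 0.399 in the control, from 9 and 2 reads. It passed the filter of a mean of 1 RPKM only through the clusterin library, where it was higher, so its call is a description. Its ratio of the levels themselves, with nothing added, was 5.19 (1.07 to 49.3). On that plain ratio SNORA77 (2.05), SNORA41 (2.20), SNORA30 (2.02) and SCARNA27 (2.11) were also past 2-fold, each from 17 to 50 reads. SNORA36A, its near copy inside the gene of dyskerin, had 18 reads with clusterin and 11 in the control, a ratio of 1.89 (0.844 to 4.42). Of the 112, 94 lay within 0.5 of 0 on the log2 scale, compared with 98.6% of all measured genes. This count moved with depth and the sets were not matched on it. It was 16 of 28 with under 100 reads, 39 of 44 with 100 to under 1000, and 39 of 40 with at least 1000.

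**Figure D2:**
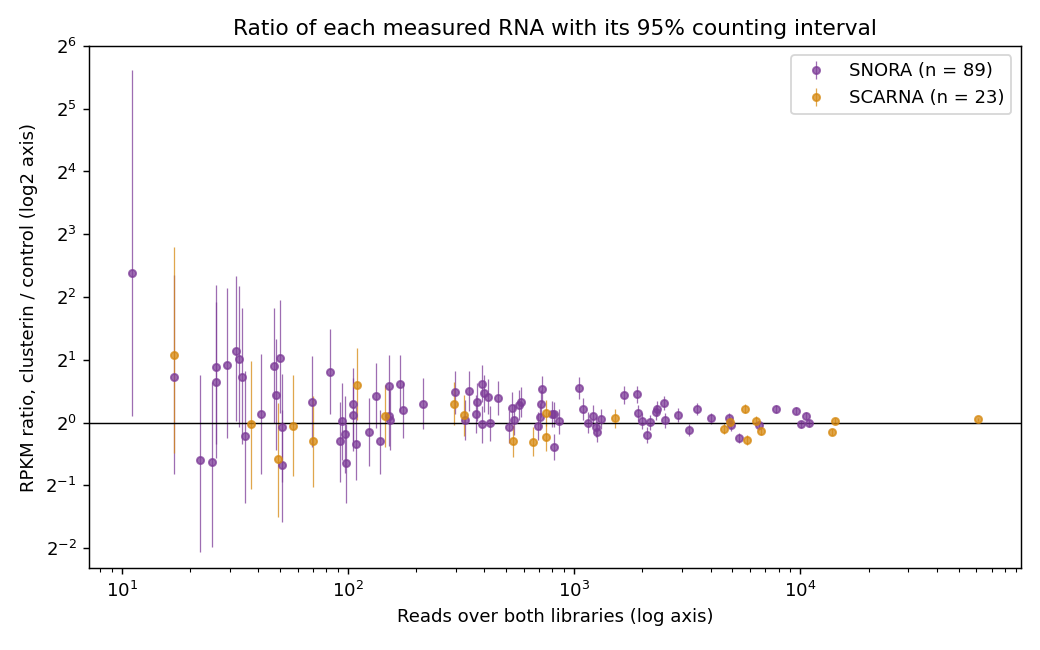
RPKM ratio of clusterin over control for the 112 measured small RNAs (vertical, log2 axis) against their reads over both libraries (horizontal, log axis), with 95% counting intervals as bars. The points above 1000 reads lie close to a ratio of 1 and more of them above it than below it, while SNORA36B, with 11 reads, has an interval of 1.07 to 49.3.

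The authors' deposited table gave 20 of the 117 a q below 0.05 and a higher level with clusterin, and 6 a q below 0.05 and a lower level, or 17.1% and 5.13%, against 1.63% and 10.4% of all 20642 genes above 0. Such values set 1 library against the other and say nothing of other cultures. The p-values behind them equalled an Audic-Claverie p within 2% for the 111 small RNAs with whole reads at the listed span. They so count read sampling error only. For the other 6 the length was picked to give the deposited p-value, so their match was fixed in advance. Calls also depend on depth. Among genes with at least 1000 reads, 11 of 40 small RNAs were called higher and 5 lower, against 2.84% and 21.9% of 7125 genes in all. The spread between the libraries went beyond counting error, with a robust SD of 3.32 times that error for the 40 small RNAs and 1.80 times for the 7125 genes. It was 2.23 times for 15 C/D nucleolar RNAs (SNORD symbols) with at least 1000 reads. This multiple depends on depth, and the sets were not matched on depth above 1000 reads.

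Of the 20 that stood higher in the authors' deposited table, SNORA14B had the largest log2 difference, 0.60, at 50.01 RPKM with clusterin (224 reads) and 32.5 in the control (168 reads). SNORA55 came next, at 21.3 RPKM with clusterin and 13.9 in the control, with a log2 difference of 0.58 from 97 and 73 reads. SNORA9 followed with 0.54, at 133 and 90.8 RPKM (585 and 462 reads), with a ratio of 1.46 (1.29 to 1.65) and a q of 1.21e-07 in the authors' deposited table. SNORA80, SNORA26, SNORA54 and SNORA71B had log2 differences of 0.52, 0.49, 0.46 and 0.46. Below them came SNORA7A, at 223 RPKM with clusterin and 164 in the control, a ratio of 1.36 (1.24 to 1.49). SNORA34, at 196 and 145 RPKM, had a ratio of 1.35 (1.23 to 1.49). The choice of these 9 was made with their values known.

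The 6 that stood lower in the authors' deposited table were SCARNA17, SCARNA10, SCARNA5, SNORA53, SNORA27 and SNORA49. SNORA53 had 273 RPKM with clusterin and 323 in the control, with 2264 and 3090 reads and a ratio of 0.844 (0.800 to 0.892). SNORA27 had 216 RPKM with clusterin and 247 in the control, for a ratio of 0.872 (0.799 to 0.952). SNORA49 had 71.1 RPKM with clusterin and 92.8 in the control, for a ratio of 0.766 (0.663 to 0.884). The choice of these 3 SNORA genes was made with their values known.

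Among genes with at least 20 reads, the furthest apart had few reads. The 5 highest were SNORA77 (32 reads with clusterin and 18 in the control, log2 0.87), SNORA41 (21 and 11, 0.87), SNORA30 (21 and 12, 0.78), SNORA14A (29 and 18, 0.74) and SNORA2A (50 and 33, 0.72). The intervals of SNORA77 (ratio 2.05, 1.12 to 3.88), SNORA41 (2.20, 1.01 to 5.05) and SNORA2A (1.75, 1.10 to 2.80) lay above 1, and those of SNORA30 and SNORA14A included it. The 5 lowest were SNORA42 (35 reads with clusterin and 63 in the control, log2 -0.58), SNORA57 (18 and 33, -0.55), SCARNA11 (18 and 31, -0.48), SNORA60 (9 and 16, -0.45) and SNORA56 (8 and 14, -0.42). Only the interval of SNORA42 (ratio 0.640, 0.411 to 0.983) lay below 1 among these 5. None of these 10 had a q below 0.05 in the authors' deposited table.

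The Cajal body RNAs fell into classes by their boxes, taken here from background knowledge of each RNA. The 5 C/D RNAs were SCARNA2, SCARNA7, SCARNA9, SCARNA9L and SCARNA17; the 4 mixed ones, with both kinds of box, were SCARNA5, SCARNA6, SCARNA10 and SCARNA12; 14 were H/ACA, and SCARNA27 was not assigned. Of the C/D RNAs, 4 of 5 stood lower with clusterin, and SCARNA2 stood higher. Most genes stood lower too, with 29.8% of all measured genes above 0. SCARNA17, which guides methylation of U4 and U12, had 173 RPKM with clusterin and 209 in the control, a ratio of 0.825 (0.783 to 0.870). SCARNA7 (U90), a guide for U1, had 187 RPKM with clusterin and 200 in the control, for a ratio of 0.934 (0.880 to 0.990). SCARNA9, another guide for U2, stood at 27.1 and 31.9 RPKM, with a ratio of 0.848 (0.731 to 0.982). Its related gene SCARNA9L had 23.6 RPKM with clusterin and 29.1 in the control, for a ratio of 0.810 (0.691 to 0.948), and reads of this pair may not be told apart.

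The mixed RNAs split evenly, with 2 of 4 above 0, against 29.8% of all measured genes. SCARNA10 (U85), which guides both kinds of modification on U5, had 551 RPKM with clusterin and 610 in the control, a ratio of 0.904 (0.874 to 0.935). SCARNA5 (U87) stood at 320 and 351 RPKM, with a ratio of 0.911 (0.868 to 0.957). SCARNA12 (U89), at 740 and 729 RPKM, had a ratio of 1.02 (0.983 to 1.05). SCARNA6 (U88), at 258 and 257 RPKM, had a ratio of 1.003 (0.948 to 1.06). The intervals of SCARNA10 and SCARNA5 lay below 1, and those of SCARNA12 and SCARNA6 included it.

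Of 13 measured H/ACA Cajal body RNAs 8 were above 0, with a median of 0.07, against 29.8% and -0.06 for all measured genes. SCARNA16, a guide for U1, had 462 RPKM with clusterin and 396 in the control, a ratio of 1.17 (1.11 to 1.23) and a q of 5.76e-07 in the authors' deposited table. SCARNA13 (U93) stood at 327 and 320 RPKM and SCARNA21 at 157 and 150 RPKM, both with intervals that included 1. SCARNA1, a guide for U2, stood the other way, at 40.1 and 49.2 RPKM, a ratio of 0.816 (0.684 to 0.973). SCARNA3 stood at 13.0 and 8.54 RPKM from 62 and 47 reads, a ratio of 1.52 (1.02 to 2.27). SCARNA22 (ACA11) had 36.7 RPKM with clusterin and 29.7 in the control, and its interval of 0.975 to 1.56 included 1. The intervals of SCARNA4, SCARNA18, SCARNA8, SCARNA23, SCARNA20, SCARNA14 and SCARNA11 included 1 as well, as did that of SCARNA27, from 11 and 6 reads. SCARNA15 had 4 and 3 reads and stayed below the level filter.

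**Figure D3:**
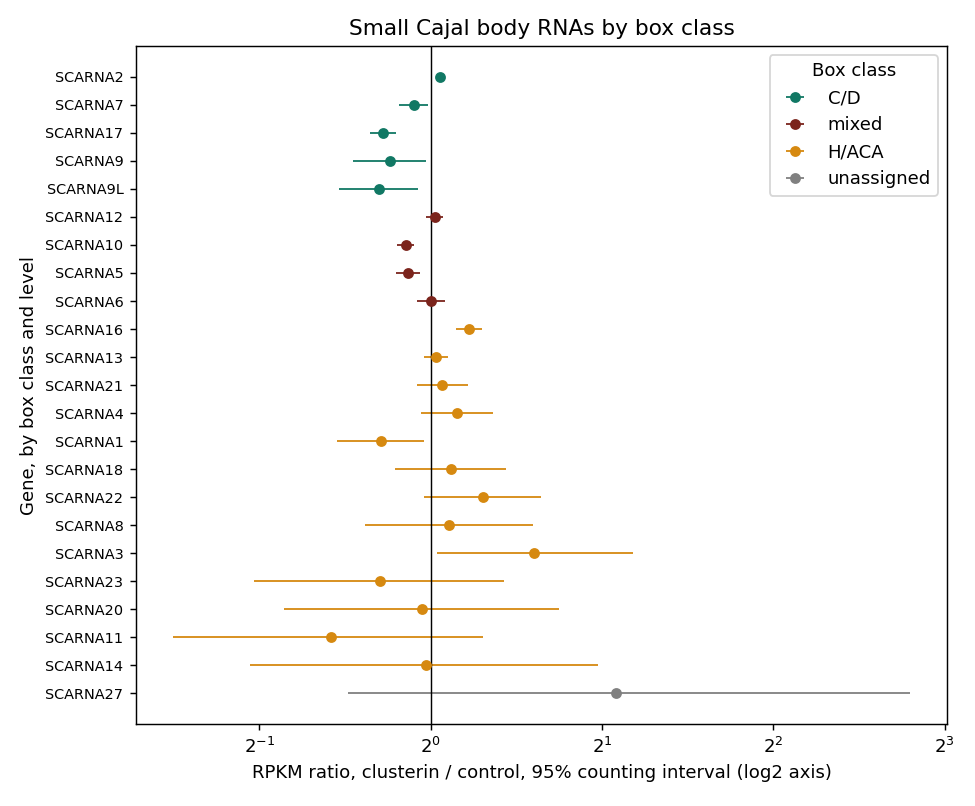
RPKM ratio of clusterin over control for the 23 measured small Cajal body RNAs, with 95% counting intervals on a log2 axis, grouped by box class and ordered by level within a class. The C/D RNAs except SCARNA2 lie left of 1, down to 0.810 for SCARNA9L, and SCARNA16 lies right of it at 1.17.

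Length moved with the difference. The 14 small RNAs of at least 200 nucleotides, 10 of them SCARNA genes, had a median log2 difference of -0.12. Of these, 6 of 14 were above 0, or 42.9%, against 29.8% of all measured genes. The 98 measured small RNAs below 200 nucleotides had a median of 0.13, with 69 above 0, or 70.4%. Summed reads gave ratios of 0.992 (0.981 to 1.002) for the longer group, 0.956 (0.942 to 0.970) for that group without SCARNA2, and 1.07 (1.06 to 1.08) for the shorter group. Within the SCARNA genes, the 13 measured ones below 200 nucleotides had a median of 0.10 and the 10 longer ones -0.12, so box class and length cannot be told apart here. Across the 112 measured genes, Spearman's rho of the difference with length was -0.30, a description over genes that share 2 libraries. The still shorter C/D nucleolar RNAs (SNORD symbols, median length 79 nucleotides) did not continue this order, with a median of -0.03 over 143 measured genes. Length also went with level, with a rho of 0.38 over the 117 small RNAs, and level with the difference, at -0.18 over the 112. Median reads over both libraries were 5564.5 for the longer group and 366 for all 103 shorter small RNAs. The parts of length, level and depth in these differences were not tested.

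**Figure D4:**
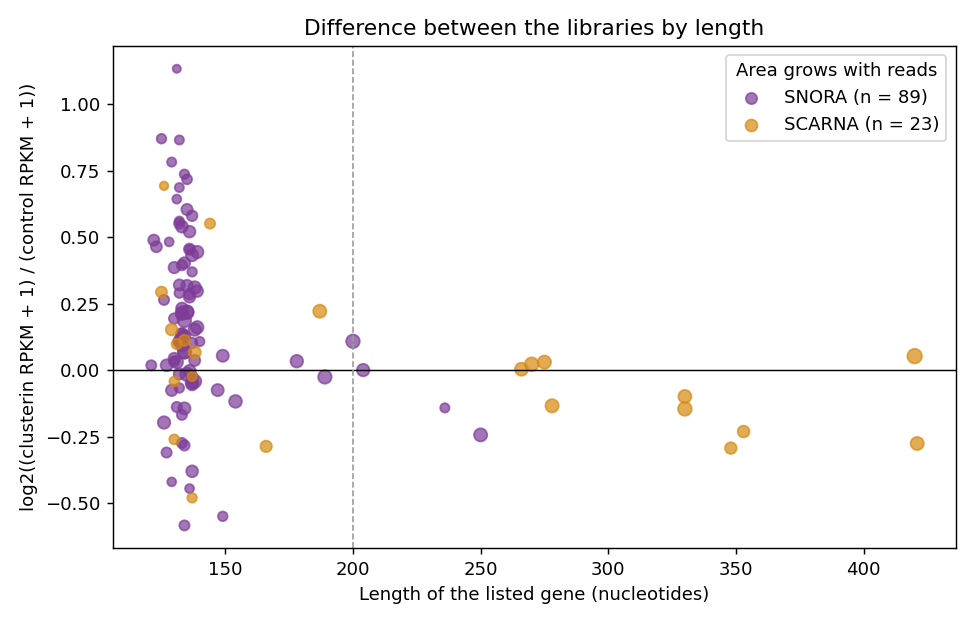
Log2 difference between clusterin and control (vertical) against the length of the listed gene in nucleotides (horizontal) for the 112 measured small RNAs, with larger points for more reads and a dashed line at 200 nucleotides. The 14 longer RNAs lie between -0.29 and 0.11, while the shorter ones spread from -0.58 to 1.13.

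The C/D nucleolar RNAs are the nearest relatives, and their values are given beside those of the H/ACA set. Among H/ACA and Cajal body RNAs with at least 100 reads 59 of 84 lay above 0, or 70.2%, against 29 of 60 SNORD genes at that depth, or 48.3%, and 29.8% of all measured genes. Summed over all 154 SNORD genes with a level above 0, the ratio of reads was 1.06 (1.04 to 1.07), the same as for the SNORA genes to that precision. Of these 154, 5 were called higher and 4 lower in the authors' deposited table, or 3.25% and 2.60%, against 1.63% and 10.4% of all genes. With at least 1000 reads, 3 of 15 SNORD genes were called higher and 2 lower. At that depth 11 of 40 H/ACA and Cajal body RNAs were called higher and 5 lower, against 2.84% and 21.9% of all genes. No test between the sets was made.

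Copies of one RNA also stood apart from single ones. The 25 measured genes that share their symbol stem with another listed gene had a median log2 difference of 0.31, with 20 above 0. The other 87 had 0.05, with 55 above 0. These shares above 0 were 80% and 63.2%, both larger than the 29.8% of all measured genes. This split was not planned in advance, and it counts listed copies at 0, such as those of SNORA11. The U71 family shows the spread within such a group. SNORA71A, SNORA71B, SNORA71C and SNORA71D lie within a short stretch of chromosome 20 and had log2 differences of -0.04, 0.46, 0.15 and 0.31. Their levels with clusterin were 653, 48.1, 206 and 283 RPKM, against 672, 34.8, 185 and 228 RPKM in the control. SNORA7A and SNORA7B had 0.44 and 0.30, SNORA74A and SNORA74B 0.11 and 0.00, and SNORA14A and SNORA14B 0.74 and 0.60. Reads of near-identical copies can be split in ways the deposited values do not show, so single copies are uncertain, and SNORA59A and SNORA59B carried identical values.

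Most of the small RNAs lay inside a listed gene on the same strand. By the coordinates of the table, 97 of 117 did, in 82 host genes; 82 of the 97 lay in protein-coding genes, 12 in long noncoding genes and 3 in others. SCARNA2 and SCARNA17, which are known to be made from promoters of their own, were among the 20 without such a host. The 20 also held SNORA genes such as SNORA8 and SNORA71A. Hosts were sought only by the listed spans, so the lack of one here does not show that an RNA has none. Exons and introns of the hosts were not annotated in the sources used here. Of 93 measured small RNAs with a host, 48 had a level above that of the host, and the ratio of the levels ran from 0.0146 for SNORA69 in RPL39 to 62.9 for SNORA22 in the pseudogene CCT6P1. In the 15 that lie in genes of ribosomal proteins, 1 stood above its host, SNORA70 in RPL10, and the median ratio was 0.243. In the other 78, 47 stood above the host, with a median ratio of 1.51.

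The level of a small RNA thus varied widely at a given level of its host. SCARNA10 averaged 29.5 times the level of NCAPD2, a condensin subunit, which stood at 18.4 RPKM with clusterin and 21.0 in the control. SNORA63 averaged 21.0 times the level of EIF4A2, an initiation factor helicase, at 52.1 and 55.3 RPKM. SNORA52 in RPLP2 stood close to its host, at a ratio of 0.854, whereas SNORA72 in RPL30, whose host had 432 and 428 RPKM, stood at 8.22 and 6.54 RPKM. Across the 93 genes Spearman's rho of the 2 levels was 0.34.

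**Figure D5:**
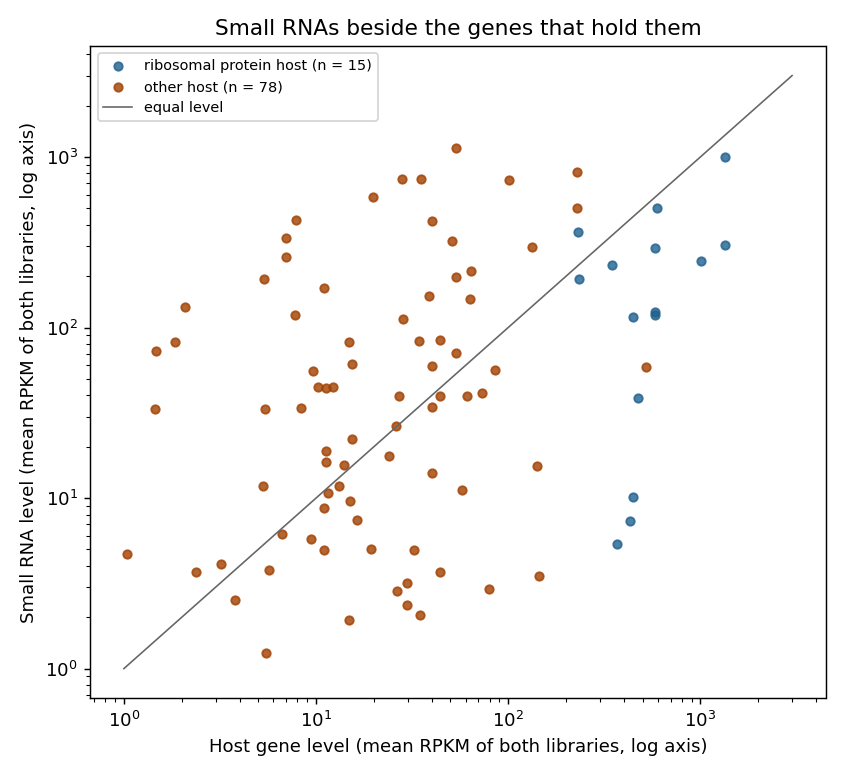
Mean level of both libraries for 93 measured small RNAs (vertical) against that of the gene holding each one (horizontal), in RPKM on log axes, with the line of equal level. The 15 small RNAs in ribosomal protein genes lie to the right, 14 of them below the line, and those in other genes lie on both sides of it.

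Small RNAs of the same host also stood at different levels. There were 11 hosts with more than 1 of them, 26 in all. EIF4A2 held SNORA63, SNORA81 and SNORA4, at 1124, 200 and 69.3 RPKM with clusterin and 1136, 195 and 72.0 RPKM in the control, a 16.0-fold range of the means. In KANSL2, SNORA34 stood far above SNORA2A and SNORA2B, which had 11.2 and 5.72 RPKM with clusterin and 6.39 and 4.20 RPKM in the control. SNHG7 held SNORA43, at 431 and 411 RPKM, and SNORA17, at 16.1 and 11.99 RPKM. ATG16L1 held SCARNA5 and SCARNA6, whose means were 1.30-fold apart. DKC1 itself held SNORA36A, at 4.17 and 2.21 RPKM, and SNORA56, at 1.87 and 2.84 RPKM.

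Small RNAs and their hosts were also compared in their differences. The 78 hosts of measured small RNAs had a median log2 difference of -0.08, and 67 of them lay below 0. For all measured genes the median was -0.06 and 29.8% lay above 0. Of the 93 small RNAs 69 had a higher difference than the host, by a median of 0.19, and Spearman's rho of the 2 differences was 0.08. RPS2, at 1310 RPKM with clusterin and 1379 in the control, was lower where its SNORA64 and SNORA10 were higher, the last at 316 and 290 RPKM. SNHG12, a noncoding host, stood higher at 12.3 and 10.3 RPKM, as did SNORA16A (50.2 and 37.7), SNORA44 (19.6 and 13.1) and SNORA61 (20.2 and 17.5) within it.

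Many snoRNA hosts belong to the genes whose RNA starts with a tract of pyrimidines, which ties their translation to growth signals. RefSeq promoters (GRCh38.p14) were available for 66 of the 82 hosts and for none of the small RNAs themselves. The letters CTTT lay within the first 6 bases from an annotated start in 15 of the 66 hosts, or 22.7%, against 3.36% of 27305 genes; on the other strand the letters AAAG did so in 0 hosts and 1.82% of genes. A match is a description of these letters only. The stretches below run from 40 bases before the start to 20 bases from it, in the direction of transcription, for 6 hosts of RNAs named above with a match (in capitals) and for 2 without one.
NCAPD2, host of SCARNA10, chr12:6494062-6494121, plus strand: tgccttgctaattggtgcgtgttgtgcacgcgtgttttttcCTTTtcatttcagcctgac
PHB2, host of SCARNA12, chr12:6970645-6970704, minus strand: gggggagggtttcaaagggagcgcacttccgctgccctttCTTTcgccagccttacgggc
IPO7, host of SNORA23, chr11:9384612-9384671, plus strand: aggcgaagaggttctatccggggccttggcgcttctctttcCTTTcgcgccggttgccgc
EIF4A2, host of SNORA63, SNORA81 and SNORA4, chr3:186783537-186783596, plus strand: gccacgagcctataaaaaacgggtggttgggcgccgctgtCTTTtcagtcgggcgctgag
RPLP2, host of SNORA52, chr11:809927-809986, plus strand: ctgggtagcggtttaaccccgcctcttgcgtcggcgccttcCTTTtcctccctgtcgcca
SNHG12, host of SNORA16A, SNORA44 and SNORA61, chr1:28581854-28581913, minus strand: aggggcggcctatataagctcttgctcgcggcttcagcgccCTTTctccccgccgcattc
ATG16L1, host of SCARNA5 and SCARNA6, chr2:233251633-233251692, plus strand: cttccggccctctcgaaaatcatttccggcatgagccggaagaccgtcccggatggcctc
KANSL2, host of SNORA34, SNORA2A and SNORA2B, chr12:48682219-48682278, minus strand: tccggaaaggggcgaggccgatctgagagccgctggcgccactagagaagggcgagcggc

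Genes for the proteins that carry these RNAs had differences in RNA level near the median of all genes, which itself lay below 0. All 4 core protein genes of the H/ACA particle were below 0. DKC1, dyskerin, stood at 29.1 RPKM with clusterin and 30.7 in the control (log2 -0.08), NHP2 at 133 and 135 RPKM (-0.03), NOP10 at 54.8 and 59.98 RPKM (-0.13) and GAR1 at 5.23 and 5.57 RPKM (-0.08). Together with 10 genes of assembly and processing, 11 of 14 were below 0, 6 of them below the median of all genes. The other 3 were above 0, as were 29.8% of all measured genes. Their median of -0.04 lay near the -0.06 of all genes, and after the clusterin library was rescaled to a median of 0 over all genes it was 0.014. Of the assembly genes, TOE1, a deadenylase of Cajal bodies, had the lowest difference, -0.20, followed by TGS1, the cap hypermethylase, at -0.10. NUFIP1, an assembly factor, was the highest at 0.11 and RUVBL2, a helicase of the same machinery, stood at 0.03.

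Cajal body genes gave a similar picture, with 14 of 19 below 0 and 5 above it, against 29.8% of all measured genes above 0. Their median was -0.05, or 0.015 after that rescaling. COIL, coilin, the scaffold of the body, was the lowest at 7.26 RPKM with clusterin and 8.85 in the control (log2 -0.25), followed by GEMIN8 of the SMN complex at -0.21. USPL1 (0.17) and GEMIN5 (0.15) were the highest. WRAP53, which brings RNAs with a Cajal body signal to the body, stood at 7.10 and 6.75 RPKM (0.06). TERC, the telomerase RNA and itself an H/ACA RNA outside the SNORA and SCARNA symbols, stood at 681 RPKM with clusterin and 705 in the control, with 10191 and 12166 reads and a ratio of 0.965 (0.940 to 0.991). TERT, the catalytic subunit of telomerase, stood at 0.135 and 0.163 RPKM and TEP1 at 0.837 and 0.964 RPKM, both below the level filter.

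Genes for modification without a guide RNA and for the C/D particle were also near the median of all genes. Of all measured genes 29.8% lay above 0. Of 11 measured stand-alone pseudouridine synthases 6 were below 0, with a median of -0.01; TRUB2 and RPUSD4 stood lowest, both at -0.20, and PUS7L (0.09) and RPUSD1 (0.05) highest. The 5 C/D core protein genes were all below 0, with a median of -0.08, from NOP58 at -0.11 and SNU13 at -0.10 to FBL at -0.06 and RRP9 at -0.05. Of the spliceosomal small nuclear RNAs, the targets of the Cajal body guides, 4 were measured, all of the minor spliceosome. RNU6ATAC stood at 402 RPKM with clusterin and 312 in the control and RNU4ATAC at 21.6 and 16.3 RPKM, while RNU12 stood at 146 and 174 RPKM and RNU11 at 90.2 and 95.1 RPKM. Among 17 snoRNA host genes of a fixed list, 14 were below 0, with a median of -0.07; SNHG12 (0.23) and SNHG7 (0.11) were the highest, and SNHG9 (-0.47) and SNHG5 (-0.25) the lowest. SNORA78 lies within SNHG9 and stood at 10.4 RPKM with clusterin and 13.2 in the control, and how reads were divided between the pair is not stated. None of the measured genes of these lists was past 2-fold.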

How the data were processed

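Per the labels, 1 clusterin and 1 control library of D407 cells were made from oligo(dT)-enriched RNA. The submitters' processing notes name Bowtie, TopHat, Cuffdiff and hg19, with no role, version or strand setting. For each gene the authors deposited 1 level per library, the log2 fold change and its p-value and q-value. The level unit was read from the values as RPKM: at 1 total per library, level times length was a whole number of reads, within 0.02 plus rounding, for 111 of 117 small RNAs at the listed span, and for the other 6 at another length that gave the deposited p-value within 2%. Whole numbers cannot tell reads from read pairs. By RefSeq symbol 107 of 117 matched GRCh38 positions within 2000 bp, so coordinates are GRCh38 for these 107 although hg19 was named. The other 10 were found as synonyms, and their positions were not compared. All 16722 genes at 0 carry deposited p and q of 0, not taken as calls.

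Ratio intervals are exact Clopper-Pearson intervals (95%) of the clusterin share of reads, rescaled by the totals; reads without molecular identifiers are not independent, so they cover counting error only. No test between groups was made with 1 library each. A host was the listed gene holding the small RNA on the same strand, the most abundant where several did. For genes of several exons reads were recovered by searching the length. They were used to pick genes with at least 1000 reads and for the spread over counting error of those genes. Read recovery was tested on simulated data. Named genes of the small RNAs were the 12 with most reads, the 6 highest levels, those past 2-fold, the measured SCARNA genes, the 5 highest and 5 lowest among those with 20 reads, with the core proteins and 2 genes at each end of other lists; further ones were chosen with their values known. The members and lists were chosen with earlier results of these data known. Python 3.11.15, pandas 2.3.3 and scipy 1.17.1 were used.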

Additional observations from a re-analysis of the deposited data

How the results depend on the processing

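With 1 library per group no replicate could be left out, and no paired analysis was possible because each group has 1 library. The number of small RNAs at least 2-fold higher was 4 with a pseudocount of 0.1 RPKM, 0 with 5 RPKM and 0 with a mean of at least 5 RPKM. None was 2-fold lower under any of the 6 alternatives. The share of all genes was not counted under these alternatives. Rescaling the clusterin library by 1.05, so that the median of all measured genes was 0, gave a median log2 difference of 0.17 for all small RNAs, turned the medians of the H/ACA protein and assembly genes to 0.014 and of the Cajal body genes to 0.015, and gave ratios of summed reads of 1.08 for all, 1.11 for SNORA and 1.05 for SCARNA genes; this follows from its construction. Without SCARNA2 the SCARNA ratio was 0.967. Splits by length, chosen after seeing the data, gave a median of -0.12 and a ratio of 0.992 for RNAs of at least 200 nucleotides and a ratio of 1.07 for shorter ones; the cause was not tested. Without genes sharing a symbol stem, a split also not planned in advance, the median was 0.05. Of 39 named small RNAs, 9 left their counting interval with the rescaling and 0 with either pseudocount. The 9 were those with most reads, whose intervals are narrow, so this count follows depth. Among the 9, SNORA63 and SNORA23 stood below 0 as reported and at 0.055 and 0.045 after the rescaling. Some that stayed within their interval also changed sign, such as SNORA71A, from -0.042 to 0.028. Depth limits the 33 small RNAs with under 100 reads over both libraries (6 to 98).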

Other observations

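Some of these RNAs are listed a further time under an Ensembl identifier. There were 8 such entries, 7 of them above 0, and 3 (SNORA71A, SCARNA10 and SCARNA22) carried the same values as the entry by symbol. The entry for SNORA59B differed, at 1.72 RPKM with clusterin and 1.90 in the control.

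SNORA38 gave whole reads, 15 with clusterin and 25 in the control, only at a length of 924 nucleotides, against a listed span of 132, and its level of 0.489 and 0.708 RPKM is accordingly low for those reads. For SNORA59A and SNORA59B the length was 304, against 152. The reason was not tested.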
